A study of Mus musculus with 13 samples.

Results

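The data described here are the transcriptomes of 9210 mouse cardiomyocytes at the embryonic stages E12.5 and E14.5 (E for days after conception), taken from 4 droplet libraries of dissected hearts, 2 at each stage. All animals were wild-type C57Bl/6J and untreated, and the stages differed only in age by their labels. The study states that hearts of different ages were obtained in batches, and reports a lower cell viability at E14.5 than at E12.5. Each library held 1 age, so age cannot be told apart from batch or preparation in this comparison. A barcode was counted as a cardiomyocyte when it held at least 2000 unique molecular identifiers (UMIs, each a counted RNA molecule) from at least 500 genes, at least 1% mitochondrial UMIs and at least 1500 CPM (counts per 1e6 UMIs of the barcode) of Tnnt2, the cardiac troponin T gene. Of the 21233 barcodes of these libraries that passed the UMI and gene minimum, 9210 met the rule, against 23570 of 76191 in all 10 matrices of the series. The E12.5 libraries gave 1729 and 2300 cardiomyocytes and the E14.5 libraries gave 2811 and 2370. The series followed heart development from E8.5 to postnatal day 3, and the comparison asked which genes changed in heart muscle cells between the 2 ages. Neither the labels nor the methods say how many hearts went into a library, or of which sex. Whether litters differed between libraries of the same age is not stated either. The p-values therefore rest on the spread between these libraries, with a variance estimate shared across genes.

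Between these ages the heart of the mouse completes its septation, the compact wall of the ventricles thickens, and the trabeculae, the muscle ridges that line the early ventricle, stop expanding. Cardiomyocytes keep dividing while they build more regular sarcomeres, the contractile units of actin thin filaments and myosin thick filaments, and a sarcoplasmic reticulum that stores calcium for each beat. The embryonic heart relies largely on glucose and lactate and turns to fatty acids as its main fuel around birth, and several muscle proteins are exchanged for adult isoforms over the same period.

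The selected barcodes carried the genes of heart muscle. The summed level of 15 cardiomyocyte markers was 52565 and 49427 CPM in the E12.5 libraries and 48528 and 49387 CPM in the E14.5 libraries, against 1600.3 to 3044 CPM in the barcodes under the Tnnt2 threshold. The 15 include Tnnt2, so its own part of this contrast was fixed by the rule. Most marker lists of other heart cells summed to less than in the barcodes under that threshold. The 12 endothelial markers summed to 82.4 and 78.0 CPM at E12.5 and 59.3 and 53.1 CPM at E14.5, against 1364 to 1624 CPM under the threshold. The 12 fibroblast and mesenchyme markers summed to 130 to 136 CPM, against 1460.4 to 2860.4 CPM, and the 10 epicardial markers to 93.7 to 109 CPM, against 164 to 237 CPM. Within the epicardial list the keratin genes Krt19, Krt18 and Krt8 were higher in the selected barcodes in every library, and the other members were lower. Krt19 had 50.6 and 44.2 CPM at E12.5 and 37.5 and 37.0 CPM at E14.5, against 9.84 to 20.8 CPM. The 10 smooth muscle and pericyte markers were the exception, with 1715 to 1916 CPM in the selected barcodes against 685 to 790.4 CPM. Acta2, the smooth muscle actin gene that embryonic heart muscle also expresses, made up 1174 and 1182 CPM at E12.5 and 1339 and 1428 CPM at E14.5 of it. Cnn1 was also higher in the selected barcodes of every library, at 189 to 285 CPM against 25.3 to 52.1 CPM. Rgs5, Eln, Kcnj8, Notch3 and Pdgfrb were lower in every library. Myh11, a defining smooth muscle gene, was at most at 0.290 CPM. It was also at most at 0.242 CPM under the threshold, so its level cannot tell smooth muscle from heart muscle here. The 12 macrophage markers summed to 46.4 and 47.2 CPM at E12.5, where the barcodes under the threshold had 95.2 and 46.8 CPM, and to 33.0 and 32.6 CPM at E14.5, against 454 and 347 CPM; most of the sum was Lyz2, with 40.3 and 41.7 CPM at E12.5 and 18.4 and 19.1 CPM at E14.5. Tnnt2 and the mitochondrial genes were used to choose the barcodes and are given without a test. Tnnt2 had 3675 and 3504 CPM at E12.5 and 4903 and 5054 CPM at E14.5. The median mitochondrial share was 6.53% and 6.92% at E12.5 and 8.51% and 8.40% at E14.5. Just inside the Tnnt2 threshold, 133 and 231 barcodes of the E12.5 libraries and 120 and 98 of the E14.5 libraries had 1500 to 2000 CPM, and just outside it 58 and 121, and 57 and 65, had 1000 to 1500 CPM. The cells held fewer UMIs at the later stage, with medians of 25454 and 24104 UMIs per cell at E12.5 and 17941 and 14091 at E14.5. The parts of sequencing depth and of RNA per cell in this were not tested. The summed libraries held 35074977 to 55167430 UMIs. Pairs of libraries shared 3 to 15 barcodes, where independent draws from the barcode list would share 5.39 to 9.04.

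Summed over cells, 13948 genes were tested with the edgeR quasi-likelihood test, 2 libraries against 2. At an adjusted p under 0.05, 2541 genes (18.2% of those tested) were higher at E14.5 and 2322 (16.6%) were lower, 34.9% in either direction. Regardless of the test, both E14.5 libraries lay above both E12.5 libraries in 34.2% of genes and below both in 34.1%. Most of these differences were small, with a median log2 fold change of 0.44 among the higher genes and -0.44 among the lower ones. Of the called genes 393 rose and 441 fell at least 2-fold, and only 21 and 24 of these also reached a mean of 50 CPM at a stage. Values after ± below are approximate standard errors of the log2 fold change, worked back by dividing its absolute value by the square root of the F statistic of the test. Adjusted p-values are those of this test over all genes. Barcodes under 1000 CPM of Myl2, the ventricular myosin light chain gene, were 14.4% and 13% of those selected at E12.5 and 8.89% and 7.13% at E14.5, and in summed libraries fewer cells of a type and less RNA per cell cannot be told apart. Without E14.5 replicate 1 there were 1618 higher and 1343 lower genes, and without E14.5 replicate 2 there were 1703 and 1460. When each cell was thinned to 2000 UMIs, so that UMIs per cell were the same at both stages, 940 and 806 genes were called. Of the genes called without thinning, 2124 of the 2167 higher and 1833 of the 1878 lower ones that could still be fitted kept their direction. The thinned counts were drawn from the same UMIs, so this agreement in direction is not independent of the first calls.

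**Figure D1:**
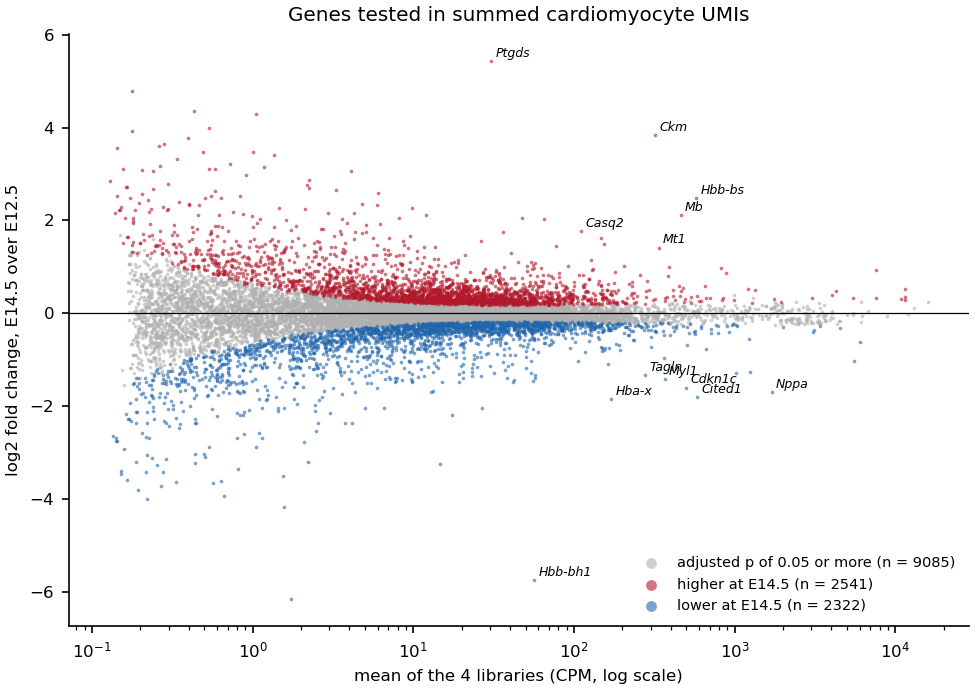
Mean level over the 4 libraries (CPM, log scale) against the log2 fold change of E14.5 over E12.5 for the 13948 tested genes, 1 point a gene; red points were higher and blue points lower at an adjusted p under 0.05. Most called genes lie within 1 log2 unit of 0, and Ckm, Ptgds and Hbb-bh1 stand far outside.

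The muscle creatine kinase gene Ckm, whose enzyme buffers ATP in muscle, changed most among well-expressed muscle genes. Ckm had 42.0 and 42.4 CPM in the E12.5 libraries and 583 and 619 CPM in the E14.5 libraries. Both E14.5 libraries lay far above both E12.5 libraries, a log2 fold change of 3.83 ± 0.08 (adjusted p = 1.6e-10), or 14.2-fold. Ptgds, which encodes lipocalin-type prostaglandin D synthase, had 1.62 and 1.18 CPM in the E12.5 libraries and 59.3 and 60.7 CPM in the E14.5 libraries, so that it was close to absent at the earlier age (5.44 ± 0.11, adjusted p = 1.4e-10). Mb, the gene of the oxygen-binding muscle protein myoglobin, had 185 and 161 CPM in the E12.5 libraries and 753 and 749 CPM in the E14.5 libraries (2.12 ± 0.10, adjusted p = 9.4e-08). Casq2 encodes calsequestrin, the calcium-storing protein of the sarcoplasmic reticulum, and had 46.3 and 54.3 CPM in the E12.5 libraries and 167 and 176 CPM in the E14.5 libraries. It rose by a log2 fold change of 1.77 ± 0.08 (adjusted p = 9.4e-08) without overlap between the stages. The small heat shock protein gene Hspb6 rose from 18.5 to 76.3 CPM (2.05 ± 0.07), Gas6, a secreted ligand of the TAM receptor kinases, from 25.5 to 104 CPM (2.03 ± 0.08), and Mlf1 from 72.3 to 222 CPM (1.61 ± 0.08). The metallothionein genes Mt1 and Mt2, whose proteins bind zinc and copper, rose together, Mt1 from 184 to 491 CPM (1.41 ± 0.10) and Mt2 from 16.4 to 56.0 CPM (1.76 ± 0.12). The septin gene Sept6 rose from 41.6 to 114 CPM (1.45 ± 0.07). The remaining members of the 12 largest rises at 50 CPM or more were Xist and the adult globin gene Hbb-bs, described below with the sex-linked and red cell genes.

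The 12 largest falls at 50 CPM or more were in genes of several kinds. Nppa, the gene of atrial natriuretic peptide, had 2834 and 2355 CPM in the E12.5 libraries and 788 and 818 CPM in the E14.5 libraries. Even the lower E12.5 library was well above both E14.5 libraries (-1.70 ± 0.11, adjusted p = 9.8e-07). Cited1, a transcriptional coregulator of the trabecular wall, had 977 and 840.4 CPM in the E12.5 libraries and 254 and 263 CPM in the E14.5 libraries (-1.81 ± 0.10, adjusted p = 2.8e-07). Cdkn1c, which encodes the cell cycle inhibitor p57, had 769.8 and 734 CPM in the E12.5 libraries and 247 and 249 CPM in the E14.5 libraries (-1.60 ± 0.08, adjusted p = 1.8e-07). These 3 genes separated the stages completely, and in each the E14.5 libraries lay close to each other. Myl1, a myosin light chain gene of embryonic heart and fast skeletal muscle, fell from 535 to 199.8 CPM (-1.42 ± 0.10), and Tagln, the gene of the smooth muscle protein transgelin, from 396 to 157 CPM (-1.34 ± 0.09). The chromatin gene Hmga2, active in early embryos, fell from 61.6 to 22.7 CPM (-1.44 ± 0.07). The matrix genes Fbln1 and Col2a1 fell by 1.48 and 1.40 on the log2 scale, the guidance ligand gene Slit2 by 1.47 and Capn6, a calpain without protease activity, by 1.40. The embryonic globin genes Hba-x and Hbb-bh1 complete the 12 largest falls. In the plot by library none of these 24 genes overlapped between the stages, which the rule for naming them required.

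**Figure D2:**
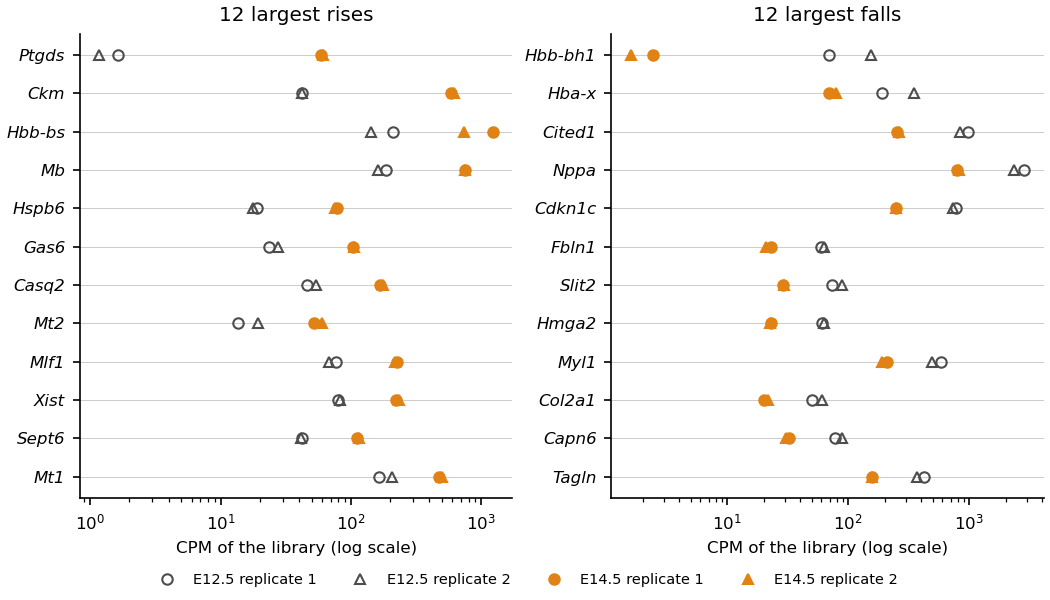
Level in each library (CPM, log scale) of the 12 genes with the largest rise and the 12 with the largest fall among called genes of at least 50 CPM at a stage; open symbols are E12.5 libraries, filled symbols E14.5 libraries, circles replicate 1 and triangles replicate 2. Replicates of a stage lie close together in most genes and are farther apart in the globin genes Hbb-bs, Hba-x and Hbb-bh1.

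The sequences directly upstream of 4 of these muscle genes are printed to show the regions from which the changed transcripts start: Ckm and Casq2, which rose, and Nppa and Myl7 (an atrial-type myosin light chain gene described below), which fell. Each is the 250 bases before the RefSeq transcription start in build GRCm38.p6, 5′ to 3′ on the strand of the gene. Capitals mark every match, on either strand, to the E-box CANNTG, the GATA motif TGATAA, the MEF2 site or the CArG box.
Ckm, chr7:19410844-19411093, plus strand: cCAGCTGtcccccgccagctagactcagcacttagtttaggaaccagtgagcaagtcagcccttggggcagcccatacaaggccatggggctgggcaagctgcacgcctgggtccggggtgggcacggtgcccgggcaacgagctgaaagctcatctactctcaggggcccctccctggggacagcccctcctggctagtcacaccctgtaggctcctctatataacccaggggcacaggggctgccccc
Casq2, chr3:102086165-102086414, plus strand: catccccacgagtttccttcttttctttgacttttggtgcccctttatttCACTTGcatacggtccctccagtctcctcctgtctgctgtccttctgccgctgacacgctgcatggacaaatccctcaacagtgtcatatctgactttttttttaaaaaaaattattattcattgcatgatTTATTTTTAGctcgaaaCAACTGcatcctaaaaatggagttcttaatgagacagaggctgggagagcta
Nppa, chr4:148000472-148000721, plus strand: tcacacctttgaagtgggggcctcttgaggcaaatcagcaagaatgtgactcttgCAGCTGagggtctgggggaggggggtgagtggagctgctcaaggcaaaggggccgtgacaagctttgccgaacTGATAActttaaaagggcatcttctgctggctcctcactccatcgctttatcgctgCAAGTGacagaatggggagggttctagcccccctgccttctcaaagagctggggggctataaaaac
Myl7, chr11:5898783-5899032, minus strand: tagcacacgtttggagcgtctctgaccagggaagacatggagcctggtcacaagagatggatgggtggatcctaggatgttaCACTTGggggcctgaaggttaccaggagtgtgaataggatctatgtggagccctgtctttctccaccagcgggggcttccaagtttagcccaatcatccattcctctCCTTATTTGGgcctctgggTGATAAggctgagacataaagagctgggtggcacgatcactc
The Ckm window held 1 E-box and none of the other motifs. Casq2 held 2 E-boxes and 1 MEF2 site, Nppa 2 E-boxes and 1 TGATAA, and Myl7 1 match each to the E-box, TGATAA and the CArG box. Of 32817 promoter windows of the same length given by RefSeq, 66.2% held an E-box, 7.95% TGATAA, 2.92% a MEF2 site and 1.47% a CArG box. No match overlapped another, and a match is a stretch of letters, not a measured binding site.

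Genes of the contractile apparatus moved in both directions. Of 18 tested thick filament genes 4 rose and 7 fell, of 17 thin filament genes other than Tnnt2 6 rose and 6 fell, and of 23 genes of the Z-disc, which anchors the thin filaments, 8 rose and 3 fell. The median log2 fold changes of these lists were 0.02, -0.01 and 0.07, against -0.00 over all tested genes. Over all tested genes 18.2% rose and 16.6% fell, the shares to set beside these counts and those of the lists below. Among thick filament genes the light chain genes of the early and atrial heart fell. Myl7 had 7846 and 6964 CPM in the E12.5 libraries and 3779.5 and 3453 CPM in the E14.5 libraries (-1.04 ± 0.10, adjusted p = 2.4e-05), and Myl4 had 7542 and 7023 CPM in the E12.5 libraries and 4766 and 4704 CPM in the E14.5 libraries (-0.62 ± 0.10, adjusted p = 4.9e-04). All E12.5 values were above all E14.5 values for both genes. The ventricular light chain genes did not pass the test, Myl2 with 13295 and 11667 CPM at E12.5 and 13324 and 13738 CPM at E14.5 (0.11 ± 0.11, adjusted p = 0.44) and Myl3 with 5907 and 5273 CPM at E12.5 and 6562 and 6771 CPM at E14.5 (0.25 ± 0.10, adjusted p = 0.073). Myh6, the faster alpha myosin heavy chain gene, fell from 626 to 388 CPM (-0.69 ± 0.08, adjusted p = 5.9e-05), while its slower partner Myh7 did not pass the test, from 2794 to 2790.4 CPM (-0.00 ± 0.09, adjusted p = 0.99). In barcodes under 1000 CPM of Myl2, Myh6 had 1743 and 1667 CPM at E12.5 and 1638 and 1655 CPM at E14.5. In the other barcodes it fell from 478 and 479 to 278 and 310 CPM. The former were a smaller share at E14.5, and the part of this in the summed fall was not tested. Trim63, a ubiquitin ligase gene of the sarcomere, rose from 58.8 to 102 CPM (0.79 ± 0.07), and Myom2, an M-band protein gene of mature muscle, rose from a low level, from 0.594 to 3.87 CPM (2.70 ± 0.17).

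In the thin filament, Acta1, the skeletal alpha actin gene that embryonic heart expresses, had 379.6 and 373 CPM in the E12.5 libraries and 236 and 222 CPM in the E14.5 libraries. It fell without overlap (-0.72 ± 0.08, adjusted p = 3.7e-05), and Actc1, the cardiac actin gene, did not pass the test (-0.01 ± 0.10, adjusted p = 0.96). Tnnt1, the slow skeletal troponin T gene, rose from 559 to 1093 CPM (0.97 ± 0.08, adjusted p = 6.7e-06), and Tnnt3, the fast one, fell from 11.2 to 4.21 CPM (-1.39 ± 0.14). Barcodes under 1000 CPM of Myl2 had 449 and 418 CPM of Tnnt1 at E12.5 and 552 and 427 CPM at E14.5. The other barcodes rose from 586 and 566 to 1134 and 1142 CPM of Tnnt1. The troponin I pair, in which the fetal gene Tnni1 gives way to the adult gene Tnni3 after birth, did not pass the test in either member, with 0.18 ± 0.10 for Tnni1 (adjusted p = 0.16) and 0.19 ± 0.10 for Tnni3 (adjusted p = 0.15). Among tropomyosin genes Tpm3 fell from 57.0 to 42.2 CPM and Tpm4 from 67.9 to 45.2 CPM. At the Z-disc Nrap, a scaffold gene of growing myofibrils, rose from 37.4 to 72.5 CPM (0.95 ± 0.07, adjusted p = 1.7e-06), and Myoz2, the gene of a calcineurin-binding Z-disc protein, from 216 to 350.4 CPM (0.69 ± 0.07). Dmd, the dystrophin gene, rose from 26.0 to 38.9 CPM (0.58 ± 0.06) and Fhl2 from 183 to 276 CPM (0.59 ± 0.09). Without E14.5 replicate 1 only 2 thin filament and 5 Z-disc genes were called higher, and 2 and 6 without E14.5 replicate 2, and no Z-disc gene was called lower when either of these libraries was left out, while 6 were without E12.5 replicate 2.

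Calcium handling stood out among the muscle lists, with 16 of 28 tested genes higher, 7 lower and a median log2 fold change of 0.35. The lower count was 4 without E14.5 replicate 1. The sarcoplasmic reticulum genes moved unequally. Besides Casq2, Pln, the gene of the calcium pump inhibitor phospholamban, had 994 and 1002 CPM in the E12.5 libraries and 1465 and 1395 CPM in the E14.5 libraries (0.52 ± 0.08, adjusted p = 6.3e-04), and Srl, which encodes the luminal protein sarcalumenin, rose from 156 to 220.4 CPM (0.50 ± 0.07). The gene of the cardiac calcium pump itself, Atp2a2, had 652 and 700.4 CPM at E12.5 and 721 and 717 CPM at E14.5 and did not pass the test (0.09 ± 0.08, adjusted p = 0.40). Hrc, another luminal calcium-binding protein gene, fell from 47.6 to 25.5 CPM (-0.91 ± 0.07, adjusted p = 3.9e-06), and Atp2a1, the skeletal pump gene, fell from 0.734 to 0.140 CPM (-2.27 ± 0.38). Calcium channel genes also split, with the T-type channel gene Cacna1g higher from 1.42 to 5.79 CPM (2.02 ± 0.14, adjusted p = 1.3e-06) and the auxiliary subunit gene Cacna2d2 lower from 53.5 to 24.3 CPM (-1.13 ± 0.09, adjusted p = 4.5e-06). In barcodes under 1000 CPM of Myl2, Cacna2d2 had 181 and 196 CPM at E12.5 and 199 and 167 CPM at E14.5. In the other barcodes it fell from 32.0 and 38.5 to 12.4 and 12.2 CPM. Of 27 ion channel and connexin genes 10 rose and 11 fell. Kcne1, a potassium channel subunit gene, had 95.6 and 83.1 CPM in the E12.5 libraries and 175 and 170.4 CPM in the E14.5 libraries (0.95 ± 0.09, adjusted p = 1.2e-05), and Gja1, the connexin 43 gene, rose from 143 to 191 CPM (0.41 ± 0.08). The inward rectifier gene Kcnj2 rose from 1.75 to 4.00 CPM (1.19 ± 0.14) and the channel-interacting gene Kcnip2 from 0.246 to 1.42 CPM (2.53 ± 0.29), both at low levels, whereas Kcnk3, a background potassium channel gene, fell from 86.9 to 54.1 CPM (-0.69 ± 0.07) and Kcna5 from 4.27 to 1.27 CPM (-1.68 ± 0.20). Kcna5 was found mainly in barcodes under 1000 CPM of Myl2, whose share was smaller at E14.5. Within them it had 29.3 and 31.9 CPM at E12.5 and 18.4 and 11.1 CPM at E14.5. In the other barcodes it was at most at 0.746 CPM.

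Fuel genes rose with a clear direction in the sums over all cardiomyocytes. Of 44 tested genes of fatty acid uptake and oxidation 27 were higher and 3 lower, with a median log2 fold change of 0.28. Barcodes under 1000 CPM of Myl2 had 7 higher and 1 lower of 41 tested, with a median of 0.11. Fabp3, the heart fatty acid-binding protein gene, had 657 and 586 CPM in the E12.5 libraries and 1129.5 and 1156 CPM in the E14.5 libraries (0.88 ± 0.09, adjusted p = 3.2e-05), and Acadl, the long-chain acyl-CoA dehydrogenase gene, had 184 and 187 CPM in the E12.5 libraries and 319 and 342 CPM in the E14.5 libraries (0.83 ± 0.08, adjusted p = 1.1e-05). For both genes the stages did not overlap. Ppargc1a, a coactivator gene that drives mitochondrial programmes, rose from 77.2 to 138 CPM (0.83 ± 0.07, adjusted p = 4.7e-06), the fatty acid transporter gene Cd36 from 26.5 to 43.0 CPM (0.70 ± 0.07), and the pyruvate dehydrogenase kinase genes Pdk2 from 20.8 to 36.0 CPM (0.79 ± 0.08) and Pdk4 from 4.45 to 9.35 CPM (1.07 ± 0.10). Fabp4, best known from fat and endothelial cells, rose from 1.60 to 7.95 CPM (2.36 ± 0.23). The count of higher genes was 20 without E14.5 replicate 1 and 17 without E14.5 replicate 2.

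Genes of glycolysis and of glucose or lactate transport leaned the same way, with 14 of 32 higher, 1 lower and a median of 0.13. The higher count was 9 without E14.5 replicate 2, the lower count was 3 without E12.5 replicate 2, and barcodes under 1000 CPM of Myl2 had 1 higher, 2 lower and a median of -0.03. The single fall was in Slc2a1, the gene of the embryonic glucose transporter GLUT1, which had 179.8 and 202 CPM in the E12.5 libraries and 108 and 109 CPM in the E14.5 libraries (-0.82 ± 0.07, adjusted p = 1.0e-05). Both E14.5 values were about equal and well below E12.5. Slc2a4, the gene of the adult muscle transporter GLUT4, rose from a much lower level, from 10.0 to 14.3 CPM (0.50 ± 0.08, adjusted p = 9.3e-04). Pgk1 rose from 42.0 to 63.2 CPM (0.59 ± 0.07), Pdk1 from 74.1 to 108 CPM (0.54 ± 0.07) and Aldoc from 6.40 to 12.46 CPM (0.94 ± 0.11). Of the lactate dehydrogenase pair Ldhb rose from 388 to 563 CPM (0.54 ± 0.09), and Ldha did not pass the test (0.11 ± 0.09, adjusted p = 0.37). Ldhb had 285 and 272 CPM at E12.5 and 309 and 302 CPM at E14.5 in barcodes under 1000 CPM of Myl2. It rose from 426 and 381 to 573 and 592 CPM in the other barcodes. Hypoxia response genes, several of which are also glycolytic, had 7 of 14 higher and 2 lower (median 0.26). Ndrg1 rose from 2.74 to 8.45 CPM (1.62 ± 0.10, adjusted p = 1.0e-06) and Bnip3 from 124 to 175 CPM (0.50 ± 0.07), while Adm, the adrenomedullin gene, fell from 5.55 to 2.69 CPM (-1.03 ± 0.12).

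How many genes of the respiratory chain passed the test depended on the libraries used. None of 37 nuclear genes of complex I, 10 of complex III or 23 of ATP synthase and the nucleotide carriers passed the edgeR test in either direction, with medians of 0.04, 0.02 and 0.10, and DESeq2 called 0, 0 and 1 of them. These counts rested on E12.5: without E12.5 replicate 1 ATP synthase and carriers had 15 genes higher and 1 lower and complex III 4 higher, and without E12.5 replicate 2 they had 6 and 3, and 0 and 2. Likewise, without E12.5 replicate 1 the complex I list had 19 genes higher and 1 lower, and without E12.5 replicate 2 it had 4 higher and 11 lower. The adult muscle isoform gene Cox8b of cytochrome oxidase had 57.8 and 101 CPM in the E12.5 libraries and 173 and 178 CPM in the E14.5 libraries (1.15 ± 0.17, adjusted p = 3.5e-04), with a wide gap between the E12.5 libraries. Cox4i2, the isoform gene associated with low oxygen, had 33.1 and 32.3 CPM in the E12.5 libraries and 13.8 and 13.3 CPM in the E14.5 libraries (-1.27 ± 0.07, adjusted p = 3.2e-07). With all 4 libraries no other of the 15 nuclear cytochrome oxidase genes passed the test, but 9 were higher and 1 lower without E12.5 replicate 1 and 4 and 2 without E12.5 replicate 2. In barcodes under 1000 CPM of Myl2, 7 complex I, 5 complex III and 4 cytochrome oxidase genes were lower and 0, 0 and 1 higher, with medians of -0.23, -0.27 and -0.14. There 4 genes of the citric acid cycle and pyruvate dehydrogenase were also lower and 0 higher, with a median of -0.09. In the citric acid cycle and pyruvate dehydrogenase list 8 of 28 rose and 0 fell, among them the mitochondrial pyruvate carrier gene Mpc1 from 132 to 188 CPM (0.50 ± 0.09), but 1 was called higher when either E14.5 library was left out, 19 without E12.5 replicate 1, and 16, with 2 lower, without E12.5 replicate 2. Ckb, the brain creatine kinase gene, fell from 190.2 to 152 CPM (-0.33 ± 0.07) as its muscle partner Ckm rose, and that fall was not called when either E14.5 library was left out.

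**Figure D3:**
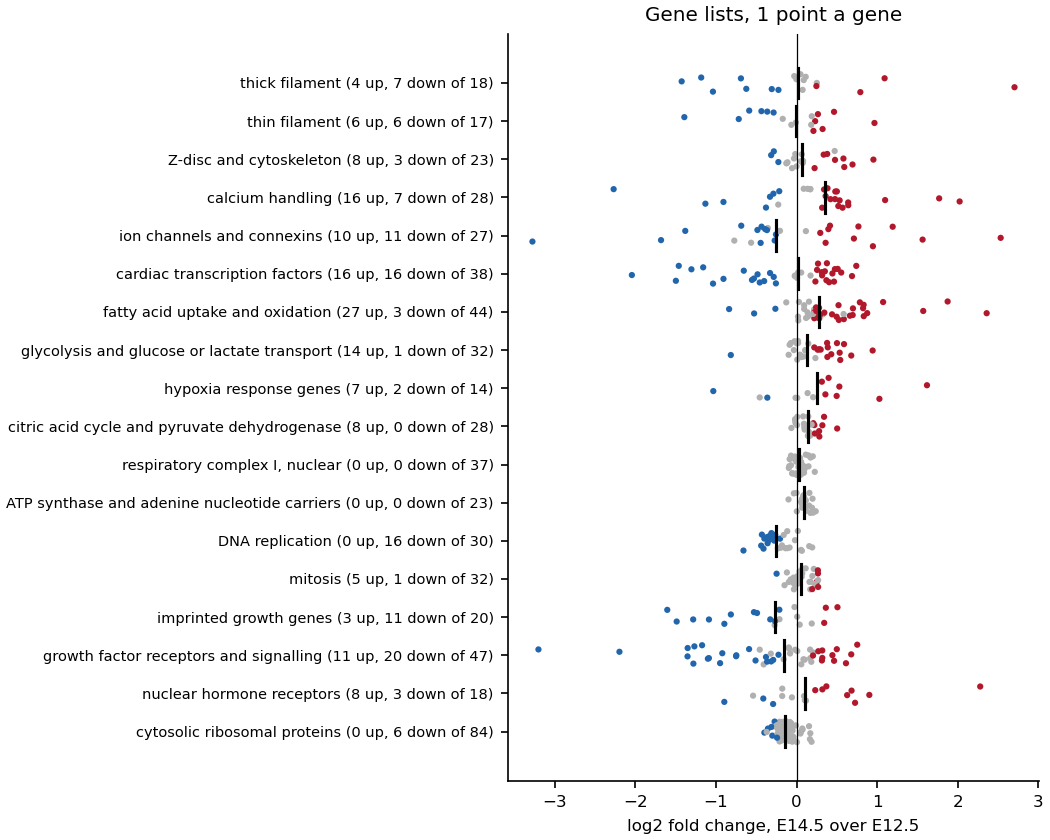
Log2 fold change of E14.5 over E12.5 for the tested genes of 18 lists, 1 point a gene, with red for higher and blue for lower genes at an adjusted p under 0.05, grey for the rest and a black line at each median; Tnnt2 is left out. Calcium handling and fatty acid genes lie to the right of 0, DNA replication and imprinted genes to the left, and the respiratory lists are tight around 0.

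Many genes of DNA synthesis fell. Of 30 DNA replication genes 16 fell and 0 rose, with a median log2 fold change of -0.25. Of 32 mitosis genes 1 fell and 5 rose, with a median of 0.05. Over all tested genes 16.6% fell and 18.2% rose. Ccne1, the cyclin E1 gene of the entry into S phase, had 18.3 and 21.2 CPM in the E12.5 libraries and 12.3 and 12.8 CPM in the E14.5 libraries (-0.66 ± 0.08, adjusted p = 8.7e-05), and the replication helicase gene Mcm3 had 34.6 and 36.0 CPM in the E12.5 libraries and 26.6 and 25.8 CPM in the E14.5 libraries (-0.43 ± 0.06, adjusted p = 4.2e-04). Both stages were cleanly apart for both genes. Dnmt1, which copies DNA methylation after replication, fell from 43.8 to 33.0 CPM (-0.41 ± 0.07), and Pcna, the sliding clamp gene, did not pass the test (-0.18 ± 0.07, adjusted p = 0.060). Among mitosis genes Kif11, a spindle motor gene, rose from 24.5 to 29.4 CPM (0.26 ± 0.07, adjusted p = 0.0094) and Racgap1, needed for cytokinesis, from 49.5 to 59.6 CPM (0.27 ± 0.07), and neither rise was called without E14.5 replicate 2. The count of lower replication genes was 9 without E14.5 replicate 2, 8 in barcodes with at least 3000 CPM of Tnnt2 and 6 after thinning, and 3 replication genes were called higher without E12.5 replicate 2 or with at least 3000 CPM of Tnnt2. The mitosis count was not stable: 18 were higher in barcodes with at least 3000 CPM of Tnnt2 or without E12.5 replicate 1, 4 were higher and 8 lower without E12.5 replicate 2, and 0 and 0 were called without E14.5 replicate 2. The G1 cyclin genes Ccnd1 and Ccnd2 fell, Ccnd1 from 70.4 to 41.3 CPM (-0.77 ± 0.06, adjusted p = 6.6e-06) and Ccnd2 from 462 to 333 CPM (-0.47 ± 0.07), and Cdk6, a partner of these cyclins, rose from 34.3 to 53.5 CPM (0.64 ± 0.07). The inhibitor genes split as well, since Cdkn2c rose from 6.42 to 14.7 CPM (1.20 ± 0.08, adjusted p = 1.5e-06) where Cdkn1c fell.

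Imprinted genes, which are read from 1 parental copy and many of which govern embryonic growth, fell in 11 of 20 cases and rose in 3, or 5 without E12.5 replicate 2, with a median of -0.27. In barcodes under 1000 CPM of Myl2 the list had 2 higher and 3 lower of 19 tested, with a median of 0.02. Beside Cdkn1c, Mest had 1362 and 1523 CPM in the E12.5 libraries and 586 and 601 CPM in the E14.5 libraries (-1.28 ± 0.08, adjusted p = 1.1e-06). Peg3 fell from 104 to 72.3 CPM (-0.53 ± 0.08), Ndn from 64.1 to 36.5 CPM (-0.81 ± 0.08) and Dlk1 from 11.4 to 3.96 CPM (-1.49 ± 0.15), whereas H19 rose from 1113 to 1582 CPM (0.51 ± 0.09, adjusted p = 1.0e-03). H19 had 1304 and 1505 CPM at E12.5 and 1551 and 1566 CPM at E14.5 in barcodes under 1000 CPM of Myl2. It rose from 1000 and 1148 to 1572 and 1596 CPM in the other barcodes. Igf2, the fetal growth factor gene that shares a locus with H19, did not pass the test (0.04 ± 0.10, adjusted p = 0.79). Among 14 genes of early-development RNA binding and chromatin 6 fell and 1 rose, or 2 without E12.5 replicate 1. Igf2bp1, an RNA-binding protein gene of the embryo, fell from 80.6 to 51.5 CPM (-0.65 ± 0.07), Arid3b from 18.8 to 7.83 CPM (-1.27 ± 0.08) and Trim71, a gene of early progenitors, from 2.96 to 0.159 CPM (-4.17 ± 0.25). Of 84 cytosolic ribosomal protein genes 6 fell and 0 rose (median -0.15). That count was 51 without E12.5 replicate 1, 64 without E12.5 replicate 2, 1 without E14.5 replicate 1, 0 without E14.5 replicate 2 and 24 by DESeq2, with 3 and 9 higher without E12.5 replicates 1 and 2.

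Transcription factor genes of the heart were as often higher as lower, 16 and 16 of 38, against 18.2% and 16.6% of all tested genes. Hand1, which acts in the outer curvature of the left ventricle, fell most. Hand1 had 43.8 and 42.2 CPM in the E12.5 libraries and 10.8 and 10.0 CPM in the E14.5 libraries, 4.12-fold lower with no overlap (-2.04 ± 0.08, adjusted p = 2.3e-08). Gata5 fell from 7.61 to 2.64 CPM (-1.50 ± 0.13), Tbx2, which represses the chamber programme in the atrioventricular canal, from 7.60 to 3.68 CPM (-1.04 ± 0.11), and Nr2f1, an atrial factor gene, from 34.6 to 15.3 CPM (-1.16 ± 0.10). Nr2f1 was found mainly in barcodes under 1000 CPM of Myl2, whose share was smaller at E14.5, and its log2 fold change within them was -0.44 ± 0.10 (adjusted p = 0.015). Tbx2 had 13.1 and 15.1 CPM at E12.5 and 15.3 and 9.25 CPM at E14.5 within them. In the other barcodes Tbx2 fell from 6.40 and 7.04 to 3.00 and 3.01 CPM. Hey2, a factor of the compact ventricular wall, rose from 47.6 to 76.7 CPM (0.69 ± 0.08, adjusted p = 4.2e-05), as did Mef2a from 92.4 to 154 CPM (0.74 ± 0.07) and Tbx20 from 133 to 189.6 CPM (0.51 ± 0.07). Nuclear receptor genes had 8 of 18 higher and 3 lower, or 1 lower without E14.5 replicate 2, with the glucocorticoid receptor gene Nr3c1 rising from 21.3 to 35.2 CPM (0.73 ± 0.07) and the thyroid hormone receptor gene Thra from 82.96 to 107 CPM (0.37 ± 0.07). Of 15 muscle splicing regulators 5 rose and 1 fell, or 0 when either E14.5 library was left out, led by Rbm20, the regulator of titin splicing, from 35.8 to 67.0 CPM (0.90 ± 0.07, adjusted p = 3.9e-06).

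Signalling genes leaned downward, with 20 of 47 lower, 11 higher (7 without E14.5 replicate 1) and a median of -0.16. Over all tested genes 16.6% were lower and 18.2% higher. Members of the bone morphogenetic protein (BMP) pathway were among the lower signalling genes. The ligand gene Bmp4 had 30.1 and 27.0 CPM in the E12.5 libraries and 5.62 and 6.99 CPM in the E14.5 libraries (-2.20 ± 0.11, adjusted p = 1.5e-07), and Bmp10, a growth factor gene of the trabeculae, had 34.0 and 42.0 CPM in the E12.5 libraries and 13.5 and 16.6 CPM in the E14.5 libraries (-1.35 ± 0.10, adjusted p = 3.4e-06). The pathway targets Id2 and Id3 fell too, Id2 from 223 to 105 CPM (-1.09 ± 0.10) and Id3 from 76.8 to 31.7 CPM (-1.28 ± 0.10). All E14.5 values of these genes were below all E12.5 values. The Notch ligand gene Jag1 fell from 12.1 to 5.34 CPM (-1.17 ± 0.09), the Wnt effector gene Lef1 from 8.83 to 3.71 CPM (-1.27 ± 0.11) and the matricellular gene Cyr61 from 66.5 to 34.5 CPM (-0.95 ± 0.06). In barcodes under 1000 CPM of Myl2, Jag1 had 31.2 and 35.5 CPM at E12.5 and 29.7 and 29.6 CPM at E14.5. In the other barcodes it fell from 8.69 and 9.68 to 3.57 and 3.46 CPM. Vegfb rose from 244 to 346 CPM (0.50 ± 0.08, adjusted p = 4.4e-04). Among 31 adhesion and matrix genes of the muscle cell 12 rose and 10 fell, against 8 and 6 without E14.5 replicate 1 and 6 and 6 without E14.5 replicate 2. The sarcoglycan gene Sgcd, whose product links the cytoskeleton to the matrix, rose from 3.93 to 9.46 CPM (1.27 ± 0.09), Ctnna3 of the intercalated disc rose from 22.9 to 38.7 CPM (0.75 ± 0.06), and the integrin gene Itga6 fell from 82.3 to 32.5 CPM (-1.34 ± 0.07, adjusted p = 2.9e-07). In barcodes under 1000 CPM of Myl2, Itga6 had 196 and 190 CPM at E12.5 and 176 and 180 CPM at E14.5. In the other barcodes it fell from 62.1 and 72.3 to 22.3 and 21.1 CPM.

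Some called genes are markers of other cells or of the sex of the embryos. Globin genes, which mark red cells, were the most abundant of them. The 7 globin genes summed to 3182 and 4745 CPM in the selected E12.5 barcodes and 4751 and 3678 CPM at E14.5, against 59213 to 70999 CPM in barcodes with at most 100 UMIs, which hold mainly free RNA. Within them the 3 embryonic genes fell and 3 of 4 adult genes rose. After leaving out barcodes with over 1% globin UMIs, a choice that uses the globin level itself, 1 was higher and 5 were lower, and in barcodes under 1000 CPM of Myl2 0 and 5. Hbb-bh1 had 68.9 and 154 CPM in the E12.5 libraries and 2.42 and 1.60 CPM in the E14.5 libraries (-5.74 ± 0.36), Hbb-y fell from 1763 to 730.0 CPM (-1.27 ± 0.14), and Hbb-bs had 210.4 and 142 CPM in the E12.5 libraries and 1226 and 738 CPM in the E14.5 libraries (2.47 ± 0.22, adjusted p = 1.1e-05). In the low barcodes Hbb-bs was at 2581 and 2471 CPM at E12.5 and 14821 and 18235 CPM at E14.5, and Hbb-bh1 was at 1702 and 1449 CPM and at 278 and 36.4 CPM. The part of free RNA in these changes was not tested, and reads of near-identical adult globin genes may have been split between them. Of 10 tested macrophage markers 6 were higher and 1 lower, although their summed level was lower at E14.5. Among them C1qb was called higher at a low level, from 0.210 to 1.61 CPM, but was not called after leaving out barcodes in which markers of another class held over 0.1% of UMIs, a choice that uses C1qb itself. Of 12 endothelial markers 6 were lower and 0 higher. Stress genes of cell handling moved in both directions, 6 of 33 immediate early and heat shock genes higher and 10 lower, against 18.2% and 16.6% of all tested genes. The counts were 3 and 7 without E14.5 replicate 1 and 5 and 5 without E14.5 replicate 2. Hspa1a, the inducible HSP70 gene, rose from 1.71 to 10.4 CPM (2.58 ± 0.11) and Atf3, an immediate early gene, fell from 40.4 to 27.5 CPM (-0.55 ± 0.06).

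Xist, which is transcribed from the inactive X chromosome of female cells, had 79.8 and 82.3 CPM in the E12.5 libraries and 220.2 and 233 CPM in the E14.5 libraries (1.48 ± 0.07, adjusted p = 1.5e-07). Of 4 Y-linked genes, Eif2s3y and Ddx3y fell, from 33.6 to 27.4 CPM and from 28.9 to 24.4 CPM (-0.29 ± 0.07 and -0.24 ± 0.08), while Kdm5d and Uty did not pass the test, and neither fall was called without E14.5 replicate 2. All 4 libraries held RNA of both sexes. Xist differed between barcodes of the same library. Those under 1000 CPM of Myl2 had 157 and 136 CPM of Xist at E12.5 and 197 and 277 CPM at E14.5. The other barcodes had 68.8 and 75.4 CPM at E12.5 and 222 and 230 CPM at E14.5. The part of a different mix of male and female embryos in the changes of Xist and the Y-linked genes was not tested.

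Chamber markers moved in both directions in the sums over all cardiomyocytes. Of 12 atrial markers 9 fell and 2 rose, or 1 without E14.5 replicate 1 (median -0.64), and of 8 ventricular markers 4 rose and 1 fell (median 0.33). These counts include the smaller share of Myl2-low barcodes at E14.5, so classes by chamber were compared within each library. In the first split, barcodes with more Sln than Myl2 UMIs were set against those with more Myl2, since Sln marks atrial and Myl2 ventricular muscle; the former numbered 50 and 62 at E12.5 and 140 and 79 at E14.5. The stage difference differed between these classes in 463 of 13450 genes (3.44%) by an interaction term with library as a block. Sln itself was low at E12.5, however, with 36.9 and 32.3 CPM at E12.5 and 93.2 and 54.1 CPM at E14.5, and 194 and 226 of the E12.5 barcodes in the Myl2 class had under 1000 CPM of Myl2, against 92 and 71 at E14.5. A second split at 1000 CPM of Myl2 alone was therefore added after the data were seen. It put 249 and 299 barcodes at E12.5 (14.4% and 13%) and 250 and 169 at E14.5 (8.89% and 7.13%) in the Myl2-low class, with 2.41% to 3.88% of barcodes between 500 and 2000 CPM, and 893 of 13402 genes (6.66%) differed in their stage change. At this split 8 atrial markers were lower and 0 higher in the Myl2-high class (median -0.68). In the Myl2-low class 2 were lower and 5 higher (median 0.42). Ventricular markers had 4 higher and 1 lower in the Myl2-high class (median 0.26). They had 1 higher and 4 lower in the Myl2-low class (median -0.57). The ventricular list includes Myl2, which chose the classes.

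The classes differed in some chamber markers at both stages. The atrial gene Stard10 had 248 and 238 CPM at E12.5 and 198 and 187 CPM at E14.5 in the Myl2-low class and 15.5 and 15.7 CPM at E12.5 and 10.6 and 10.4 CPM at E14.5 in the Myl2-high class. The ventricular factor gene Hey2 had 49.5 and 57.9 CPM at E12.5 and 82.6 and 82.1 CPM at E14.5 in the Myl2-high class and at most 3.33 CPM in the Myl2-low class. Not every gene of the atrial list was higher in the Myl2-low class at E12.5. Bmp10 had 18.9 and 17.5 CPM there, against 36.1 and 45.2 CPM in the Myl2-high class. Nppa had 2728 and 2183 CPM there, against 2849 and 2377 CPM.

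Nppa fell in the Myl2-high class, where it had 2849 and 2377 CPM at E12.5 and 608 and 629 CPM at E14.5 (-2.09 ± 0.11, adjusted p = 4.9e-08). In the Myl2-low class it had 2728 and 2183 CPM at E12.5 and 2928 and 3690.4 CPM at E14.5, with 0.41 ± 0.12 (adjusted p = 0.050). At E12.5 the classes overlapped in Nppa, and at E14.5 both Myl2-low values were above both Myl2-high ones. The difference between the classes in the stage change was 2.47 ± 0.06 on the log2 scale (adjusted p = 3.2e-17). Mest moved in opposite directions, with 1458 and 1633 CPM at E12.5 and 545 and 549 CPM at E14.5 in the Myl2-high class (-1.50 ± 0.09) and 698 and 669 CPM at E12.5 and 1061 and 1383 CPM at E14.5 in the Myl2-low class (0.82 ± 0.12, adjusted p = 0.0011). The rise of Mest was called at this split, added after the data were seen, and not at the first split, where the Sln class had 0.40 (adjusted p = 0.080). Bmp10 also moved in opposite directions at the second split, at lower levels, with 36.1 and 45.2 CPM at E12.5 and 11.0 and 12.8 CPM at E14.5 in the Myl2-high class and 18.9 and 17.5 CPM at E12.5 and 43.2 and 74.5 CPM at E14.5 in the Myl2-low class, a difference of 3.38 ± 0.18 (adjusted p = 3.1e-11).

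The light chain genes split by class. Myl7 fell in the Myl2-high class, from 5798 and 5359 to 2476 and 2392 CPM, and was steady in the Myl2-low class, with 22141 and 19408 CPM at E12.5 and 19284 and 19605 CPM at E14.5 (difference 1.07 ± 0.02, adjusted p = 7.6e-18). Myl1 likewise had 337 and 304 CPM at E12.5 and 65.3 and 69.5 CPM at E14.5 in the Myl2-high class and 2291 and 1918 CPM at E12.5 and 1934 and 2015 CPM at E14.5 in the other (difference 2.13 ± 0.05). Myl3, a ventricular gene, was the reverse: it had 1232 and 1201 CPM at E12.5 and 509.6 and 576 CPM at E14.5 in the Myl2-low class (-1.18 ± 0.10, adjusted p = 2.7e-05) and 6577 and 5798 CPM at E12.5 and 7070.5 and 7178 CPM at E14.5 in the Myl2-high class (0.19 ± 0.11, adjusted p = 0.18). Cited1 fell from 1081 and 919 to 253 and 261 CPM in the Myl2-high class, and had 253 and 231 CPM at E12.5 and 269 and 301 CPM at E14.5 in the Myl2-low class (difference 2.15 ± 0.07, adjusted p = 1.4e-14).

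Of the genes that rose, Mb did so in the Myl2-high class, with 207 and 178 CPM at E12.5 and 813 and 796 CPM at E14.5, and stayed at 35.0 and 28.2 CPM at E12.5 and 35.4 and 34.7 CPM at E14.5 in the Myl2-low class (difference -1.94 ± 0.10, adjusted p = 1.8e-11). Ckm rose in both, from 44.9 and 45.9 to 617 and 651 CPM in the Myl2-high class and from 21.4 and 15.5 to 178 and 127 CPM in the Myl2-low class, and the rise was smaller in the latter (difference -0.77 ± 0.16, adjusted p = 0.0037). Casq2 rose more in the Myl2-low class, by 2.26 ± 0.11 against 1.71 ± 0.08 (adjusted p = 9.5e-04). Fatty acid genes were called higher in 25 of the tested genes in the Myl2-high class (median 0.29) and 7 in the Myl2-low class (median 0.11). The sums of the latter held far fewer cells, and the difference between those counts was not tested. Gene by gene, the interaction term gave smaller rises in the Myl2-low class for Fabp3 (-0.44 ± 0.06, adjusted p = 6.6e-05) and Acadl (-0.37 ± 0.08, adjusted p = 0.0067). It also did for Ppargc1a (-0.31 ± 0.08, adjusted p = 0.027) and Pdk2 (-0.44 ± 0.13, adjusted p = 0.047). The term was not called for Cd36, Pdk4 or Fabp4. Restricting the whole comparison to the Myl2-high class gave 2477 higher and 2275 lower genes, and to the Myl2-low class 615 and 535.

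**Figure D4:**
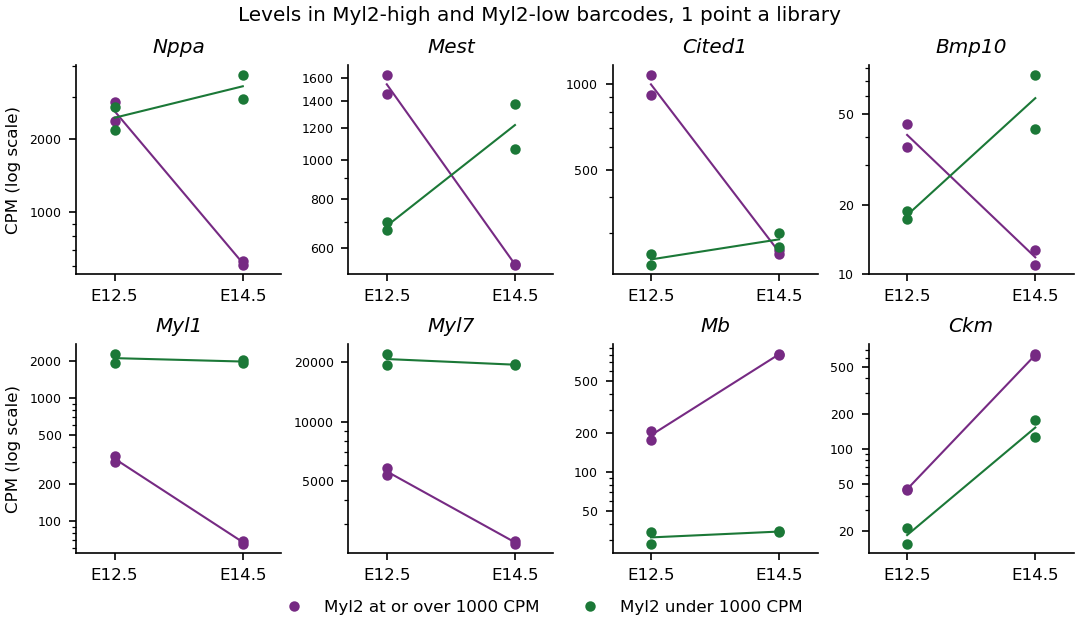
Level (CPM, log scale) of 8 genes at E12.5 and E14.5 in barcodes with at least 1000 CPM of Myl2 (purple) and under it (green), 1 point a library and lines through the stage means. Nppa, Mest and Bmp10 fall in purple and not in green, Mb rises in purple and not in green, and Ckm rises in both.

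The levels at the neighbouring ages are given as values without a test. The same rule found 108 and 99 cardiomyocytes in the E10.5 libraries, made from embryos without head and limbs, and 3509 and 3387 at E16.5. The populations differed in make-up, since 66.7% and 58.6% of the E10.5 barcodes and 8.04% and 8.65% at E16.5 had under 1000 CPM of Myl2, and 51 and 36 of the E10.5 barcodes had 1500 to 2000 CPM of Tnnt2, near the threshold. Ckm had 9.10 and 6.48 CPM at E10.5 and 2371 and 2564 CPM at E16.5, so its level was higher at each later age. Casq2 had 9.71 and 5.04 and 402 and 415 CPM, Fabp3 238 and 286 and 1907 and 1894 CPM, and Cox8b 23.1 and 34.6 and 918 and 942 CPM, in the same order of ages. Going down with age, Slc2a1 had 311 and 317 and 41.7 and 44.9 CPM, Acta1 902 and 1030.2 and 87.2 and 84.4 CPM, Cdkn1c 1223 and 987 and 81.1 and 85.7 CPM, and Hmga2 268 and 263 and 3.99 and 3.82 CPM. Other genes turned. Nppa had 1129 and 853 CPM at E10.5 and 1546 and 1578 CPM at E16.5, so that E12.5 was the highest of the 4 ages and E14.5 the lowest, with the second E10.5 library close to E14.5. Myh6 had 475 and 407 CPM and 642 and 698 CPM, with its lowest values at E14.5. The adult isoform genes that did not pass the test between E12.5 and E14.5 were higher at E16.5, where Tnni3 had 3637 and 3581 CPM and Cox6a2 2739 and 2667 CPM, against 2105 and 2129.7 and 1229.6 and 1238 CPM at E14.5.

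**Figure D5:**
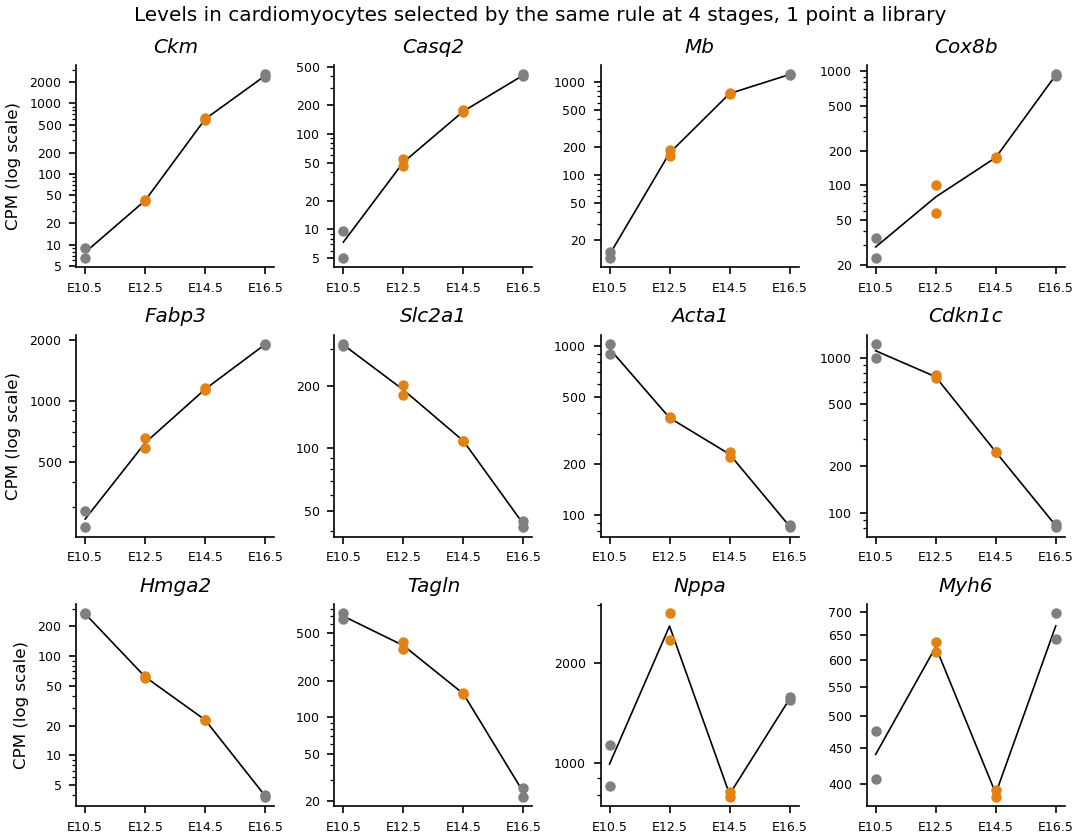
Level (CPM, log scale) of 12 genes in cardiomyocytes chosen by the same rule at E10.5, E12.5, E14.5 and E16.5, 1 point a library and a line through the stage means, with the 2 compared stages in orange. Ckm, Casq2, Mb, Cox8b and Fabp3 climb, Slc2a1, Acta1, Cdkn1c, Hmga2 and Tagln descend, and Nppa and Myh6 dip at E14.5.

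Cardiomyocytes were a larger share of the barcodes at the later stage. They made up 33.9% (95% exact binomial interval 32.6 to 35.2) and 34.0% (32.9 to 35.2) of barcodes at E12.5 and 55.7% (54.3 to 57.0) and 54.9% (53.4 to 56.4) at E14.5. The intervals cover counting error only. The remaining barcodes include red cells. Globin genes held 154233 and 151265 CPM in the barcodes under the Tnnt2 threshold at E12.5 and 67773 and 47454 CPM at E14.5. Tnnt2, which sets the share, also had a higher median per selected barcode at E14.5, 4408 and 4487.5 CPM against 3420 and 3159 CPM. The part of either in the change of share was not tested. An exact permutation test of a single value cannot give a p under 0.05 with 2 libraries a stage, so the shares are given as values. The floor on mitochondrial UMIs acted unequally, since 868 and 1134 barcodes at E12.5 and 577 and 434 at E14.5 passed all other limits but had under 1% mitochondrial UMIs. Dropping the floor gave 50.9% and 50.8% at E12.5 and 67.1% and 64.9% at E14.5.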

How the data were processed

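Dissected hearts were digested (trypsin by the labels, collagenase II by the study's methods) and sequenced as droplet libraries with 3′ tags. The authors deposited a raw UMI count matrix per library, made with Cell Ranger on mm10 (version 2.1.1 in the submitters' processing notes, 3.1.0 in the headers of these files). The barcodes, genes and lists were chosen with earlier results of these data known.

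From these counts, barcodes were selected by the rule in the opening, with Python 3.11.15; doublets were not removed. UMIs were summed per library and tested in edgeR 4.0.16 (R 4.3.3) with TMM scaling, filterByExpr, the quasi-likelihood test and Benjamini-Hochberg adjustment at 0.05. Levels are CPM over all UMIs of the summed barcodes. The script was tested on simulated counts. Chamber classes were compared by an interaction term with library as a block. Named genes are the 12 largest rises and 12 largest falls (at least 50 CPM at a stage, adjusted p under 0.05, no overlap between the stages), up to 6 genes of each list by adjusted p and 4 by level, pairs of isoforms, and the 8 smallest interaction p-values with Sln and Myl2 left out. Sln, Tnnt2 and Myh11 are given as they define classes, barcodes or a cell type. Alternatives included DESeq2 1.42.0, other scalings and barcode limits, each library left out, and 4 added after the data were seen. Nothing in the labels pairs libraries by replicate number, and none were paired. The first E8.5 library was not analysed here.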

Additional observations from a re-analysis of the deposited data

Results flagged for a closer look

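The stage change differed between barcodes with more Sln than Myl2 UMIs and barcodes with more Myl2 in 463 of 13450 genes tested. The test was the interaction term of the edgeR quasi-likelihood test with library as a block. The 8 genes given here had the smallest adjusted p-values once Sln and Myl2, which chose the classes, were left out. Each value is the log2 change of the Sln class minus that of the Myl2 class: 2.03 ± 0.08 for Nppa (adjusted p = 2.9e-59), 1.77 ± 0.08 for Mest (adjusted p = 2.4e-51), 1.59 ± 0.07 for Myl1 (adjusted p = 2.4e-48) and 2.13 ± 0.10 for Cited1 (adjusted p = 2.8e-46). Myl7 had 1.07 ± 0.07 (adjusted p = 3.3e-34) and Nr2f1 1.82 ± 0.14 (adjusted p = 1.8e-25), and all 6 fell in the Myl2 class. The sign was the opposite for Myl3, with -1.44 ± 0.08 (adjusted p = 1.1e-36), and for the embryonic globin gene Hbb-y, with -1.42 ± 0.10 (adjusted p = 3.7e-28). These standard errors and p-values rest on a variance estimate shared across genes, and do not measure the spread of each gene between libraries. With 2 libraries a stage, little is known of the spread of 1 gene. Nppa in the Sln class had 3452 and 3975 CPM at E12.5 and 3361 and 4990 CPM at E14.5. In the Myl2 class it had 2815 and 2316 CPM at E12.5 and 654 and 668 CPM at E14.5. The size of the p-values depended on the split: the same term gave Nppa an adjusted p of 3.2e-17 at 1000 CPM of Myl2.

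The split at 1000 CPM of Myl2, chosen after the data were seen, kept these signs, with 2.47 ± 0.06 for Nppa, 2.29 ± 0.09 for Mest, 2.13 ± 0.05 for Myl1, 2.15 ± 0.07 for Cited1, 1.07 ± 0.02 for Myl7, -1.41 ± 0.05 for Myl3 and -1.93 ± 0.32 for Hbb-y. Nr2f1 dropped to 0.53 ± 0.15 (adjusted p = 0.032). Nr2f1 had 246 and 267 CPM at E12.5 and 193 and 189 CPM at E14.5 in the Myl2-low class and 4.19 and 4.75 CPM at E12.5 and 2.68 and 1.70 CPM at E14.5 in the Myl2-high class. With 2 libraries a stage no library could be tested as standing apart from its group.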

How the results depend on the processing

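The comparison called 2541 higher and 2322 lower genes. DESeq2 called 1476 and 1380, thinning to 2000 UMIs a barcode left 940 and 806, and barcodes under 1000 CPM of Myl2 gave 615 and 535; the thinned and Myl2-low sums held fewer UMIs, and for DESeq2 the cause was not tested. Leaving out each library in turn gave 1618 to 3055 higher and 1343 to 3105 lower genes, with the lone library of a stage assumed to vary like the other stage. The other scalings and barcode limits stayed within 1.5 times. With 2 pairs, deviations of same-numbered libraries correlated at 0.026 over all tested genes and at 0.14 over the 2246 genes with a mean of at least 50 CPM, and the labels give no shared litter or day, so no pairing was assumed; the replicate block gave 2804 and 2585 genes, and the crossed pairing, added after the data were seen, 2756 and 2559. The 463 genes whose stage change differed between classes became 147 without the block, 138 when a class needed at least 4 times as many UMIs of its gene, and 893 at the 1000 CPM split. The mean share of cardiomyocytes at E12.5, 33.9%, was 37.6% with at least 5000 UMIs, 19.7% with at least 3000 CPM of Tnnt2 and 50.8% without the mitochondrial floor, and at E14.5 55.3% became 59.3%, 44.5% and 66.0%.

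Of 2993 values of the 131 genes named above under an alternative, 2864 kept direction and side of the threshold, 62 kept direction and lost the call, 22 gained it and 45 turned sign. Of these, 25 were in barcodes under 1000 CPM of Myl2, where the log2 fold change was -0.72 for Acta2, -0.051 for Atp2a2, 1.61 for Bmp10, -0.34 for Bnip3, 0.21 for Cited1, -0.16 for Cox6a2, 0.20 for Ddx3y, -0.80 for Hbb-bs, -0.73 for Hspa1a, -0.20 for Igf2, -0.57 for Kcne1, 0.16 for Kcnk3, 0.39 for Kdm5d, -0.088 for Kif11, -0.12 for Ldha, 0.82 for Mest, -1.18 for Myl3, 0.41 for Nppa, 0.017 for Peg3, -0.061 for Racgap1, -0.14 for Slc2a4, 0.80 for Slit2, -0.11 for Tnni1, -0.19 for Tnni3 and 0.41 for Uty; Myl2 and Sln are left out where they chose the barcodes. The others were values of 6 genes. Actc1 had from -0.054 to 0.039 when each library was left out, 0.00014 with at least 5000 UMIs, 0.035 under the study's mitochondrial ceilings and 0.0097 in barcodes with more Myl2 than Sln. Cox6a2 had -0.12 with at least 3000 CPM of Tnnt2 and -0.036 after thinning. Igf2 had from -0.11 to 0.20 when each library was left out and -0.0025 under the study's mitochondrial ceilings. Myh7 had from -0.059 to 0.059 when each library was left out, 0.0040 with no filter on low counts, 0.0044 in a fit of 8 libraries, 0.043 without the mitochondrial floor, 0.046 under the study's mitochondrial ceilings, 0.032 in barcodes with more Myl2 than Sln and 0.0062 after thinning. Myl2 had from -0.0035 to 0.24 when each library was left out and -0.0049 without the mitochondrial floor. Uty had 0.060 under the study's mitochondrial ceilings. The cause was not tested.

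The selected barcodes of a library held 35074977 to 55167430 UMIs in all; that limits the precision of genes at a few CPM.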
